A study of Mus musculus with 13 samples.

Results

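The transcripts of 8 mouse genes were followed in etoposide-induced senescent mouse embryonic fibroblasts (MEFs), the 6 topoisomerases Top1, Top1mt, Top2a, Top2b, Top3a and Top3b and the phosphodiesterases Tdp1 and Tdp2. They were chosen by symbol, as topoisomerases and the 2 enzymes that remove what is left of trapped ones. Of the topoisomerases, etoposide traps TOP2A and TOP2B on DNA. All 8 were found among the 57010 genes listed for each library, and all 8 passed the filter on low counts, which kept 15034 genes for testing. They were counted deeply enough to be compared in most samples, with 158 or more counts per mouse for every gene except Top2a, which fell to 20 counts in 1 mouse, and Top1mt, which had 72 to 311.

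Topoisomerases relieve the twisting of DNA by cutting it, holding the cut end on a tyrosine of the enzyme, and sealing it again. Type II enzymes cut both strands, and etoposide keeps them from sealing, so that TOP2A or TOP2B stays joined to the ends of a double-strand break. TOP2A is made in dividing cells and separates sister chromatids, whereas TOP2B is also made in cells that do not divide and acts at transcribed genes. Type IB enzymes (TOP1 in the nucleus, TOP1MT in mitochondria) cut 1 strand, and type IA enzymes (TOP3A, TOP3B) pass single strands. TDP2 removes TOP2 remnants from the 5′ ends of DNA and TDP1 removes TOP1 remnants from the 3′ ends.

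RNA-seq was performed on 4 groups of wild-type (WT) MEFs, primary fibroblasts of mouse embryos that the study grew at 3% oxygen, and each group held cells numbered mouse 4, 5 and 6. Control MEFs received neither etoposide nor fucoidan. Their labels read untreated, and the paper describes its controls as given vehicle. Senescent MEFs had received 2 μM etoposide for 24 h followed by 5 days without it. The fucoidan groups were senescent MEFs treated in the same way and then given Fucoidan-FV, a sulfated polysaccharide of the brown seaweed Fucus vesiculosus, at 100 or 300 μg/mL for 12 h. The RNA was thus taken days after etoposide had been withdrawn, and none of the groups shows the cells during the exposure itself. No group received fucoidan without etoposide.

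Control mouse 5 was sequenced as libraries 5(1) and 5(2), which were added together, so that 13 libraries gave 12 samples, 3 per group. The libraries held 22782505 to 31278741 expected counts. Summed fibroblast markers lay between 10240 and 16090 CPM (counts scaled to a common library size) in all groups, while epithelial markers stayed at or below 0.462 CPM and endothelial markers at or below 1.99 CPM. Single fibroblast markers were less even, and Vim had the highest mean in each group. Mean Dcn was 1.06 CPM in control, 16.25 in senescent, 81.65 at 100 μg/mL and 75.7 at 300 μg/mL. In that order mean Col3a1 was 516, 873, 2271 and 1963 CPM, and mean Col1a2 was 3760, 2396, 3246 and 3118 CPM. Macrophage markers summed to 0.470 to 3.57 CPM in control and 2.21 to 11.7 CPM in senescent MEFs. They summed to 3.005 to 9.17 CPM at 100 μg/mL and 2.52 to 5.48 CPM at 300 μg/mL, and their part in the results was not tested. Cdkn1a, the cell cycle inhibitor p21, was higher in senescent than in control MEFs by 1.82 on the log2 scale (edgeR's quasi-likelihood test, adjusted p = 6.8e-05).

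The promoters of the 2 type II genes are shown because these genes contrasted in senescent against control MEFs. Their log2 differences were -4.56 for Top2a and -0.11 for Top2b. Each run is the 250 bases before the annotated start of the gene's main transcript (GRCm39, GENCODE M39), read 5′ to 3′ on the gene's strand, Top2a at chr11:98915042-98915291 on the minus strand and Top2b at chr14:6104606-6104855 on the minus strand. Capitals mark matches, on either strand, to CCAAT (reverse ATTGG), to TTTGAA, to GGGCGG (reverse CCGCCC), to TTTGGCGC and to TTTCCCGC.
Top2a: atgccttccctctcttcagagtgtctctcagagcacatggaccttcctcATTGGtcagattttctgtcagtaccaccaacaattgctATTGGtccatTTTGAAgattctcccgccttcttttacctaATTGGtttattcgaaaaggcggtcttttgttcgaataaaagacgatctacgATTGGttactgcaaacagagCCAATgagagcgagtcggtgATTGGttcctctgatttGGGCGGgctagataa
Top2b: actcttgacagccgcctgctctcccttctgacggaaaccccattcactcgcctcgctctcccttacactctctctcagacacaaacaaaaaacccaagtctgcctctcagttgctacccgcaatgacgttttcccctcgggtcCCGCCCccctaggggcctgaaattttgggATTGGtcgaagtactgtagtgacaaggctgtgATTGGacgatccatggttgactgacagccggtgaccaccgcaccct

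The Top2a promoter held 6 CCAAT matches, beginning at positions -201, -163, -123, -72, -52 and -32 before the start, with 1 TTTGAA match at -153 and 1 GGGCGG match at -15. The Top2b promoter held 2 CCAAT matches, at -78 and -46, and 1 GGGCGG match at -107. CCAAT was present in 36.5% of 21770 gene promoters of the same length, and 6 or more matches were present in 0.0643%. TTTGAA was present in 15.6%, GGGCGG in 36.3%, TTTGGCGC in 0.487% and TTTCCCGC in 1.14% of these promoters. Neither of the last pair was found in the promoter of any of the 8 genes. Top3a had 1 CCAAT match, Top1 and Top1mt had 3 GGGCGG matches each, Tdp2 had 1, and Top3b and Tdp1 had no match to any of the 5 motifs. These are letters in a window, and binding was not measured.

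Before the groups were compared, libraries 5(1) and 5(2), which carry the same mouse number, were set against each other. The largest difference among the 8 genes was that of Top1, which was 2.04 higher in 5(2) on the log2 scale (315 and 1082 counts). Top2b was 0.84, Top1mt 0.78 and Top2a 0.40 higher in 5(2), whereas Top3a was 0.85, Top3b 0.71, Tdp1 0.39 and Tdp2 0.29 higher in 5(1). Over many genes, the median difference followed the share of a gene's exonic bases that belong to 1 of its transcripts only. Genes with about the 89.4% of Top1 had a median difference of 1.49, genes like Top2b (82.2%) one of 0.89, and genes like Tdp2 (36.0%) one of -0.19. Single genes spread widely around these medians. Top3a lay below the 10th percentile of genes with a like share (-0.775). Tdp1 was opposite in sign to its median of 0.026, though within the range from the 10th to the 90th percentile.

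**Figure D1:**
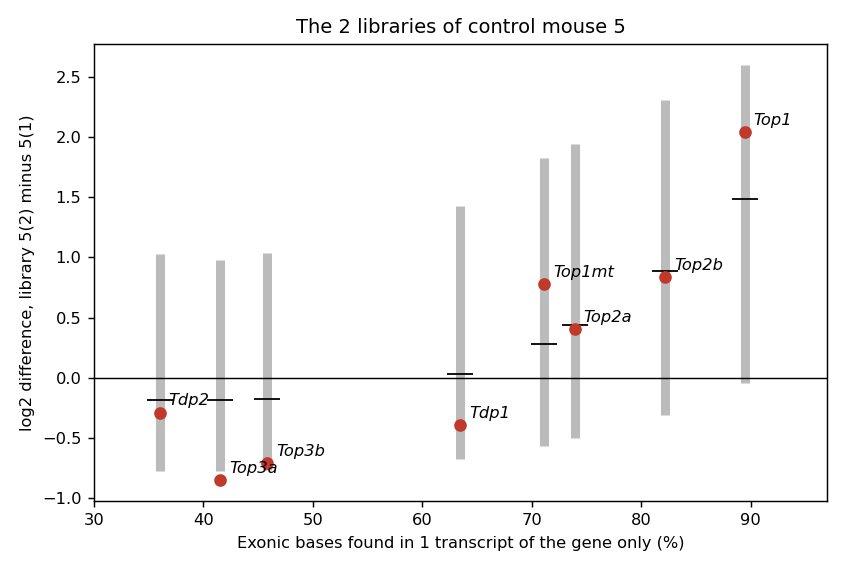
Difference between the 2 libraries of control mouse 5 (vertical axis, log2 scale) for the 8 genes (red points) against the share of their exonic bases found in 1 transcript only (horizontal axis, percent). The black dash is the median and the gray bar the range from the 10th to the 90th percentile of genes with a like share; Top1, at 89.4%, lies at 2.04 and Top3a, at 41.5%, at -0.85.

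The same pattern ran through all 13 libraries. The 2274 genes with over 95% of such bases deviated from their mean by a median of -1.31 in control mouse 6 up to 0.92 in fucoidan 100 μg/mL mouse 5, on the log2 scale. The deviation of Top1 followed that of these genes with a Pearson r of 0.88 over the 13 libraries, and Tdp2 (r = -0.82) and Top3a (r = -0.79) ran against it. Top1mt had an r of 0.64, Top2b of 0.60, Tdp1 of -0.62, Top2a of -0.08 and Top3b of -0.09. The r of Top2a also takes in its wide difference between control and etoposide-treated cells, so it cannot show whether Top2a follows the pattern within a group. In control (mouse 6), senescent (mouse 5) and 300 μg/mL (mouse 4), the lowest Top2a fell in the library where these genes were lowest. At 100 μg/mL it fell in mouse 5, where they were highest. The 13 points share depth and preparation, so these are descriptions, and an alternative fit had offsets for this share, gene length and GC content.

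Top2a (ENSMUSG00000020914, chr11:98883769-98915062, minus strand) had the largest difference between control and etoposide-treated cells among the 8 genes. Control MEFs had 130.8, 90.4 and 47.9 CPM in mice 4, 5 and 6. Senescent MEFs had 4.19, 1.68 and 5.50 CPM. MEFs given 100 μg/mL fucoidan had 6.04, 2.69 and 5.64 CPM, and those given 300 μg/mL had 0.775, 1.60 and 3.36 CPM. The lowest control mouse was thus far above the highest of all 9 etoposide-treated samples, and the 3 treated groups overlapped with each other.

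Top2a fell in senescent MEFs by 4.56 on the log2 scale (SE 0.61, 95% interval -5.86 to -3.25), a 23.5-fold lower level, in 3 of 3 mice (edgeR's quasi-likelihood test, adjusted p = 0.0004). The value stayed between -4.89 and -4.18, with an adjusted p of at most 0.00439, under all 17 alternative settings. Against control, the fucoidan groups were lower by a log2 change of -4.22 (adjusted p = 0.000247) at 100 μg/mL and -5.55 (adjusted p = 6.29e-05) at 300 μg/mL. These 3 comparisons share the control samples. In RNA of a whole culture, fewer cells that carry a transcript and less of it per cell cannot be told apart.

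**Figure D2:**
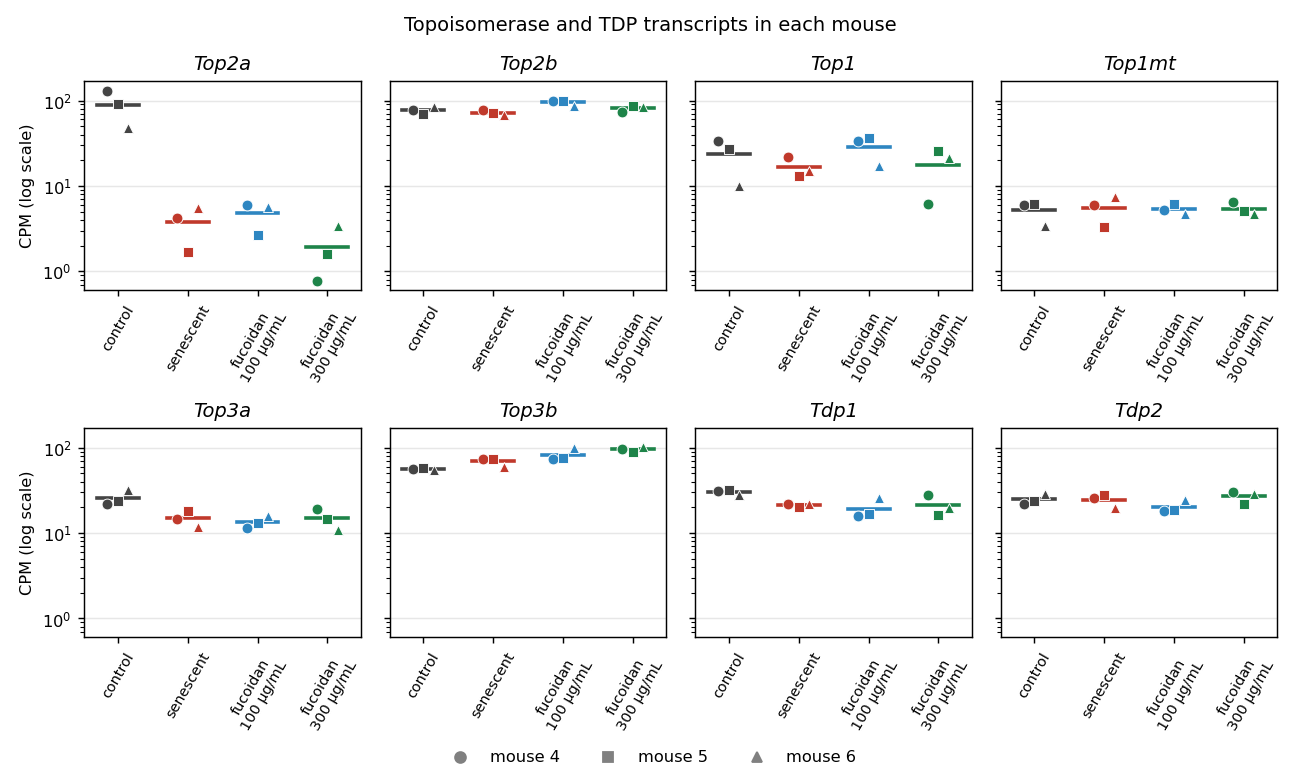
CPM on a log scale (vertical axis) of the 8 transcripts in the 4 groups (horizontal axis), with 1 symbol per mouse and a bar at the group mean. Top2a lies at 47.9 CPM or above in every control mouse and at 6.04 CPM or below in every etoposide-treated sample, while the groups of the other genes lie within a few-fold of each other.

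For Top2a, neither fucoidan dose differed from senescent MEFs past the test. At 100 μg/mL the log2 difference from senescent MEFs was 0.33 (95% interval -0.83 to 1.49, adjusted p = 0.793). At 300 μg/mL it was -0.997 (95% interval -2.20 to 0.20, adjusted p = 0.436), with a lower value in 3 of 3 mice but overlapping groups. Between the doses the log2 difference was -1.33 (SE 0.56, adjusted p = 0.970), again lower in 3 of 3 mice at 300 μg/mL. Only 20, 45 and 81 counts in the 3 mice stand behind the 300 μg/mL level, and leaving out mouse 6 of that group moved the difference from senescent MEFs to -1.67, leaving out senescent mouse 6 to -0.60.

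Top2b (ENSMUSG00000017485, chr14:6034301-6104605, minus strand) had 77.8, 69.9 and 84.7 CPM in control and 77.7, 70.7 and 67.2 CPM in senescent MEFs of mice 4, 5 and 6. The groups overlapped, and the log2 difference was -0.11 (95% interval -0.45 to 0.24, adjusted p = 0.753). The interval thus leaves out a fall of the size seen for Top2a. With library 5(1) alone for control mouse 5 the difference was 0.02.

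With 100 μg/mL fucoidan Top2b was at 99.4, 99.9 and 86.9 CPM, above all 3 senescent samples. The log2 difference of 0.41 (SE 0.16, adjusted p = 0.177) did not pass edgeR's test, and passed only by DESeq2 (0.50, adjusted p = 0.0493). With the offsets its sign turned to -0.23 (adjusted p = 0.501). At 300 μg/mL it was at 73.3, 86.9 and 83.0 CPM, a log2 difference of 0.17 (adjusted p = 0.690) from senescent MEFs, which was -0.21 with the offsets. Of the exonic bases of Top2b, 17.8% overlap Rarb, which is annotated on the opposite strand, and 11.2% of its 50-base stretches also occur in Rarb transcripts, so counts of the pair could be split. Rarb was low, at 0.383 to 9.16 CPM in control and 2.41 to 3.70 CPM in senescent MEFs.

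Levels of different genes were compared per transcript length, as TPM (RSEM's level per unit of length, scaled to a common total). In control MEFs Top2a had 84.3, 78.3 and 58.8 TPM and Top2b 61.4, 56.5 and 95.4 TPM in mice 4, 5 and 6. In senescent MEFs Top2a had 3.76, 1.75 and 4.51 TPM and Top2b 80.9, 83.1 and 48.3 TPM. The ratio of Top2a to Top2b was 1.37, 1.39 and 0.617 in control, 0.0465, 0.0211 and 0.0933 in senescent, 0.0640, 0.0125 and 0.0932 at 100 μg/mL and 0.00756, 0.0155 and 0.0343 at 300 μg/mL. Every control ratio was above every other ratio.

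The mean log2 ratio was 0.08 ± 0.67 in control and -4.47 ± 1.07 in senescent MEFs (SD, n = 3), a difference of -4.55 (two-sided exact permutation test, p = 0.1, the smallest p that 3 against 3 can give). The fucoidan groups differed from senescent MEFs by -0.10 at 100 μg/mL (exact permutation p = 0.9) and by -1.50 at 300 μg/mL (exact permutation p = 0.2). The 300 μg/mL ratio was 1.40 lower than the 100 μg/mL ratio on the log2 scale, with overlapping values (exact permutation p = 0.3). That difference was -2.28 without mouse 5 and -0.83 without mouse 6 of the 100 μg/mL group, and -0.87 without mouse 4 and -1.96 without mouse 6 of the 300 μg/mL group, always below 0. The length that RSEM assigned to Top2a ran from 1179 to 5221 bases over the libraries, which enters its TPM, and the ratio of expected counts gave -4.51 for senescent against control and 0.01 for 100 μg/mL against senescent.

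**Figure D3:**
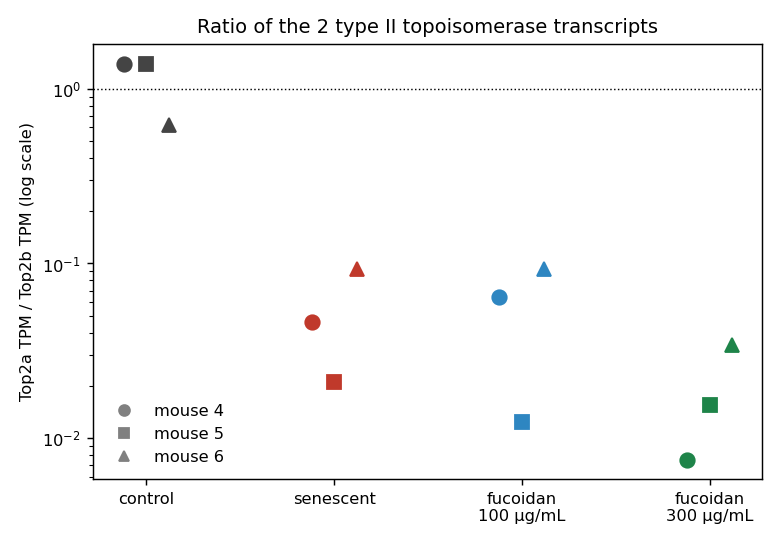
Ratio of Top2a to Top2b in TPM (vertical axis, log scale) in the 4 groups (horizontal axis), with 1 symbol per mouse and a dotted line at 1. The 3 control ratios lie between 0.617 and 1.39, and the 9 ratios of etoposide-treated cells at 0.0933 or below.

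As a share of the summed TPM of the 8 genes, Top2a went from 28.6% ± 6.4 in control to 1.97% ± 1.23 in senescent MEFs (SD, n = 3). Top2b then made up 37.9% ± 2.5, against 27.1% ± 6.5 in control, and Top3b 26.3% ± 1.7, against 14.98% ± 0.69. The sum itself was 260.2 ± 14.4 TPM in control and 185.3 ± 41.3 in senescent MEFs. It was 249.3 ± 9.7 with 100 μg/mL fucoidan and 258.2 ± 4.6 with 300 μg/mL. Senescent sums ran from 137.6 to 210.4 TPM. Among the senescent mice, mouse 6 had the lowest Top2b (48.3 TPM), Top3b (34.2), Tdp2 (13.8), Top1 (5.17) and Top3a (4.0). Its Top2a, Top1mt and Tdp1 were not the lowest. Differences in the sum were not tested. By edgeR none of the 8 genes passed in either fucoidan group against senescent MEFs. In control MEFs Top2a and Top2b led in mean TPM, with Top3b at 38.9 and Tdp1 at 26.3 after them, and with overlapping values for Top2a and Top2b. In the 300 μg/mL group the first 2 places went to Top2b (91.2 ± 1.8 TPM) and Top3b (85.9 ± 1.7 TPM), and Top2a was last at 1.73 ± 1.22 TPM.

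Top1 (chr2:160487802-160566298, plus strand), the main nuclear topoisomerase of transcription, had 33.7, 27.4 and 10.1 CPM in control and 22.1, 13.2 and 14.9 CPM in senescent MEFs. It had 33.6, 36.2 and 17.0 CPM at 100 μg/mL and 6.13, 25.5 and 21.3 CPM at 300 μg/mL. All groups overlapped. The log2 difference was -0.51 (SE 0.51, adjusted p = 0.609) for senescent against control, 0.79 (SE 0.52, adjusted p = 0.434) for 100 μg/mL and 0.08 (adjusted p = 0.971) for 300 μg/mL against senescent MEFs. With the offsets the 100 μg/mL difference was 0.02, and the samples with the lowest Top1, control mouse 6 and 300 μg/mL mouse 4, were libraries in which the 2274 genes of single transcripts were low, by -1.31 and -0.87.

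Top1mt (chr15:75527333-75550660, minus strand), the mitochondrial enzyme, was at 3.28 to 7.44 CPM in every sample. Its log2 differences were 0.10 (95% interval -0.76 to 0.95), -0.04 and -0.03 in the same order, and their signs changed with the settings. A change of up to about 1 on the log2 scale in either direction was within the interval.

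Top3a (chr11:60629009-60668333, minus strand), which with BLM and the RMI proteins takes apart joined DNA molecules, had 21.8, 23.9 and 31.9 CPM in control and 14.4, 18.4 and 11.9 CPM in senescent MEFs. The groups did not overlap, but the log2 difference of -0.79 (SE 0.29) did not pass edgeR's test (adjusted p = 0.0993). It was -0.81 by DESeq2 (adjusted p = 0.0411), -0.82 with the offsets (adjusted p = 0.0232) and -0.61 without control mouse 6 (adjusted p = 0.209). At 11.4, 13.0 and 15.9 CPM with 100 μg/mL and 19.4, 14.7 and 10.8 CPM with 300 μg/mL, the fucoidan groups differed from senescent MEFs by -0.15 and 0.01. Against control, the 100 μg/mL group was lower, with a log2 difference of -0.95 (adjusted p = 0.0281), and the adjusted p stayed under 0.05 in 10 of 17 alternative settings. Those where it did not pass include leaving out any control mouse (adjusted p from 0.0522 to 0.144) and library 5(2) alone (0.0955). They also include leaving out mouse 4 (0.117) or mouse 5 (0.0927) of the 100 μg/mL group.

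Top3b (chr16:16688572-16711269, plus strand), which also acts on RNA and binds TDRD3, ran the other way. It had 56.7, 57.8 and 54.1 CPM in control, 73.0, 74.0 and 59.8 CPM in senescent, 73.7, 75.4 and 98.4 CPM at 100 μg/mL and 95.6, 88.2 and 102.2 CPM at 300 μg/mL. In CPM all 9 etoposide-treated samples were above all 3 control samples, and the 300 μg/mL samples were above all senescent ones. The share of all genes with such a separation of 9 from 3 samples was not counted. In TPM, senescent mouse 6 (34.2) was below the control mice (38.28, 38.98 and 39.49). For senescent against control the log2 difference was 0.29 (SE 0.17, adjusted p = 0.325), with an adjusted p of 0.0356 at 0.39 when senescent mouse 6 was left out. The differences from senescent MEFs were 0.26 (adjusted p = 0.448) at 100 μg/mL and 0.47 (SE 0.17, adjusted p = 0.204) at 300 μg/mL, so none of the 3 passed the test.

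Against control, Top3b rose by 0.76 on the log2 scale at 300 μg/mL (SE 0.17, adjusted p = 0.00639), higher in 3 of 3 mice, and this kept an adjusted p of at most 0.0351 in all 17 alternatives. At 100 μg/mL it rose by 0.55 (adjusted p = 0.0312), but the adjusted p was 0.0529 with the mouse as a replicate block, 0.0756 with library 5(1) alone and 0.124 without mouse 6 of that group. Without mouse 4 or mouse 5 of the 100 μg/mL group the adjusted p was 0.0502 and 0.0572. At this dose it was under 0.05 in 11 of the 17 alternatives. Both comparisons contrast fucoidan on top of etoposide with cells given neither, so the 2 agents cannot be told apart in them.

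**Figure D4:**
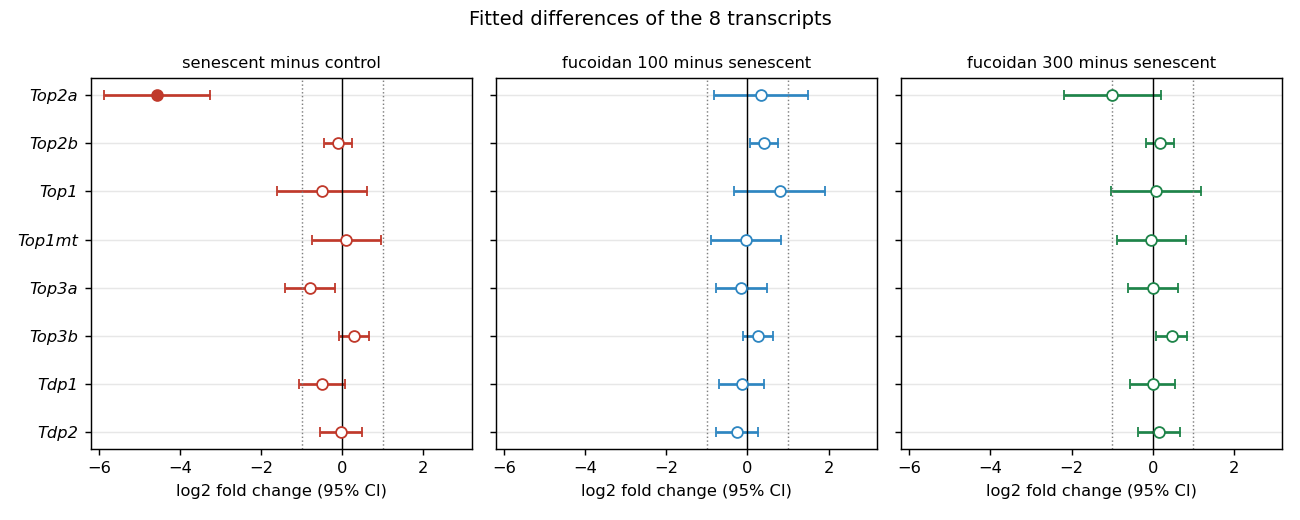
Fitted log2 fold changes (horizontal axis) of the 8 genes (vertical axis) with 95% confidence intervals in the 3 main comparisons, with filled points for genes called (adjusted p below 0.05, log2 change beyond 1 in size), and dotted lines at -1 and 1. Top2a in senescent minus control MEFs, at -4.56, is the only filled point.

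Tdp2 (chr13:25015156-25026138, plus strand), the enzyme that frees DNA ends from trapped TOP2, had 22.1, 23.5 and 29.0 CPM in control and 25.4, 27.9 and 19.5 CPM in senescent MEFs. The log2 difference was -0.04 (95% interval -0.55 to 0.48, adjusted p = 0.954). At 100 μg/mL it had 18.2, 18.7 and 24.3 CPM and at 300 μg/mL 30.3, 21.8 and 28.6 CPM, with log2 differences from senescent MEFs of -0.25 (adjusted p = 0.625) and 0.15 (adjusted p = 0.844). The intervals allow changes of up to about -0.77 and 0.67 on this scale.

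Tdp1 (chr12:99850737-99923763, plus strand) had 30.9, 31.7 and 28.0 CPM in control and 22.1, 20.4 and 21.7 CPM in senescent MEFs. These groups did not overlap, and the log2 difference was -0.50 (SE 0.26, adjusted p = 0.262). It was at 15.7, 16.6 and 25.7 CPM with 100 μg/mL and at 28.1, 16.4 and 19.6 CPM with 300 μg/mL. The log2 differences from senescent MEFs were -0.15 (adjusted p = 0.819) and 0.00 (adjusted p = 0.998).

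Counted together, 1 of the 8 genes was called in senescent against control MEFs at an adjusted p below 0.05 with a log2 fold change beyond 1 in either direction, where 8.42% of the 15034 genes were called, and 3.95% of the 15034 were called lower. The same 1 gene passed on adjusted p alone, as did 11.7% of all genes. In 4 of the 8 genes (Top2a, Top3a, Top3b and Tdp1) the 2 groups did not overlap in CPM, beside 27.1% of all genes. The median log2 difference of the 8 was -0.30, beside 0.07 over all genes tested.

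In 100 μg/mL fucoidan against senescent MEFs none of the 8 passed either rule of edgeR's test and none had both an adjusted p under 0.05 and a change over 1 by DESeq2, beside 2.69% and 4.02% of all genes by edgeR. Only Top2b did not overlap, beside 26.2% of all genes. At 300 μg/mL none of the 8 passed either rule by edgeR or DESeq2, beside 1.64% and 1.90%, and only Top3b did not overlap, beside 19.6%. Between the doses none passed, beside 0.00665% of all genes. Unadjusted p was under 0.05 for 1 gene in each of these 3 comparisons, Top2b, Top3b and Top2a. The share of all genes at that unadjusted p was not counted, so these counts have no background beside them. Against control, 1 gene (Top2a) was called in the 100 μg/mL group, beside 19.7%, and 3 (Top2a, Top3a, Top3b) passed on adjusted p alone, beside 26.6%. In the 300 μg/mL group 1 gene was called, beside 18.0%, and 2 (Top2a, Top3b) passed on adjusted p alone, beside 24.4%.

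The transcripts most like each gene over the 12 samples were found by Pearson r of log2 CPM. For Top2a these were Mki67 (0.99), Plk1 (0.99), Sgo1 (0.98), Exo1 (0.98) and Cenpf (0.98). Mki67 encodes the proliferation antigen Ki-67, Plk1 a mitotic kinase, Sgo1 a guardian of sister chromatid cohesion, Exo1 an exonuclease and Cenpf a kinetochore protein. For Top2b the first was Tmem184c (0.91), and for Top1 it was Atf6 (0.99), a sensor of unfolded protein. They were Wsb1 (0.98) for Top3a, Ralgds (0.98) for Top3b, Cpsf1 (0.94) for Tdp1, Klhl5 (0.95) for Tdp2 and 2310009B15Rik (0.95) for Top1mt. The 12 samples share the groups and the library pattern described above. Among the 8 genes themselves, Top2a and Top3b had an r of -0.76, Top3a and Tdp1 of 0.77, and Top1 and Tdp2 of -0.72.

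A further list held 39 genes, of which 38 were matched and 34 were tested. It joined genes for the repair of trapped topoisomerases with partners of TOP3A and TOP3B, meiotic relatives and drug efflux pumps. In senescent against control MEFs 9 were higher and 25 lower, with a median log2 difference of -0.39 beside 0.07 over all genes, and 6 of the 34 were called, all of them lower, beside 8.42% of all genes called and 3.95% called lower. The 5 partners of TOP3A and TOP3B on the list include Blm, the helicase that works with TOP3A. Blm was at 25.6, 23.9 and 29.3 CPM in control and at 2.94, 1.85 and 3.16 CPM in senescent MEFs. It fell by 3.30 on the log2 scale (SE 0.38, adjusted p = 0.000179).

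Among the proteases, Fam111a, a protease that acts on trapped proteins at replication forks, had 81.7, 74.8 and 107.5 CPM in control and 14.4, 20.1 and 15.4 CPM in senescent MEFs. It fell by 2.403 on that scale (SE 0.41, adjusted p = 0.00208). Neither Blm nor Fam111a overlapped between these groups. Tex264, an adaptor for the removal of TOP1, passed on adjusted p alone, with a log2 difference of 0.82 (adjusted p = 0.0218).

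Of the 9 nucleases, 6 were lower in senescent MEFs and 3 of these were called. Mre11a, the nuclease that trims blocked ends, had 38.9, 39.8 and 43.6 CPM in control and 18.9, 20.3 and 16.7 CPM in senescent MEFs, a log2 change of -1.13 (adjusted p = 0.00502). Rbbp8, its cofactor CtIP, changed by -1.13 (adjusted p = 0.0118), and fell short of the fold needed at -0.93 without control mouse 6, at -0.93 with the offsets and at -0.99 with the offsets and replicate block. Eme1, the partner of MUS81, changed by -3.05 (adjusted p = 0.0418), from 6.88, 4.69 and 2.02 CPM to 0.352, 0.0431 and 1.22 CPM. It was not tested under the stricter filter. Its call ended with the mouse as a replicate block (adjusted p = 0.0794), with library 5(2) alone (0.056), with only the 2 groups compared (0.128) and when control mouse 4 (0.150), control mouse 5 (0.1), senescent mouse 4 (0.138) or senescent mouse 5 (0.0668) was left out.

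**Figure D5:**
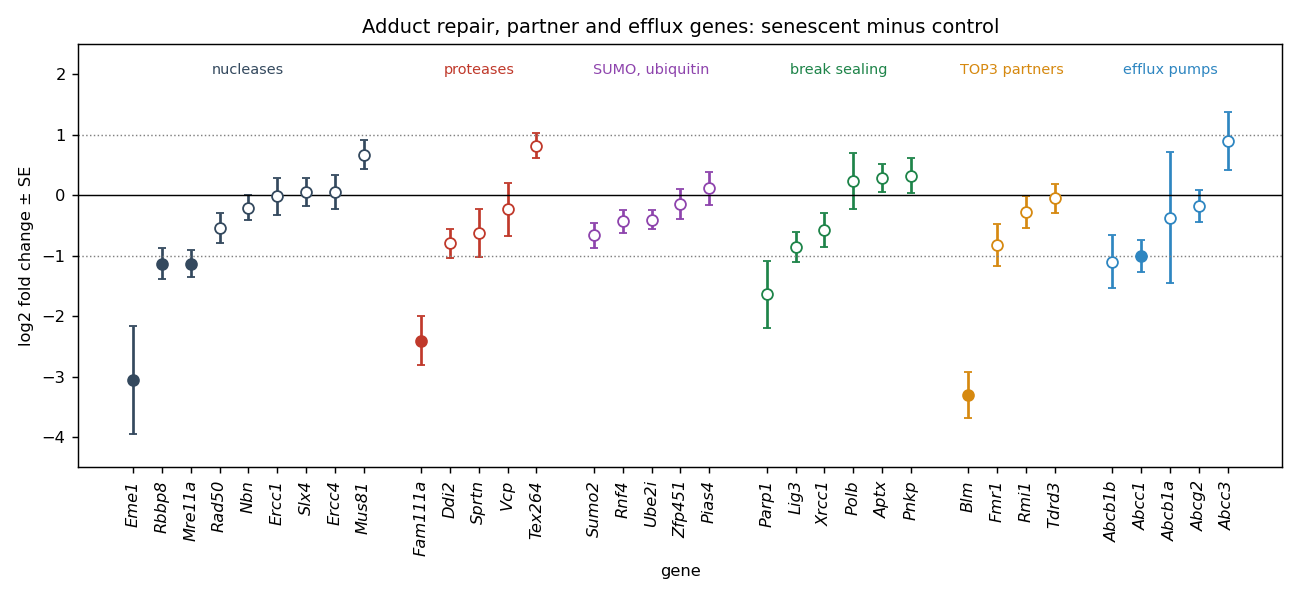
Log2 fold change with SE (vertical axis) of the 34 tested adduct repair, partner and efflux genes (horizontal axis, by list), senescent minus control MEFs, with filled points for genes called (adjusted p below 0.05, log2 change beyond 1 in size). The 6 filled points, Eme1, Rbbp8, Mre11a, Fam111a, Blm and Abcc1, all lie below -1.

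By edgeR none of the 5 SUMO and ubiquitin genes and none of the 6 break sealing genes was called, with Sumo2 at -0.66 (adjusted p = 0.0493) and the ligase Lig3 at -0.86 (adjusted p = 0.0369) passing on adjusted p alone. Parp1, a sensor of DNA breaks named after its values were seen, had 34.3, 24.9 and 5.36 CPM in control and 7.45, 3.45 and 9.89 CPM in senescent MEFs, which overlap. Its log2 difference was -1.63 by edgeR (adjusted p = 0.0757), and it was called by DESeq2 (-1.62, adjusted p = 0.0209), with no filter beyond 1 count (-1.66, 0.00359), with the offsets (-1.59, 0.0400) and without control mouse 6 (-2.08, 0.0112). Of the 5 efflux pumps, Abcc1 was called at -1.01 (adjusted p = 0.0226). It had 247.4, 255.7 and 283.0 CPM in control and 151.4, 166.9 and 73.3 CPM in senescent MEFs, and without senescent mouse 6 the change was -0.72. The call also ended without control mouse 4 (adjusted p = 0.0505), control mouse 5 (0.0549) or control mouse 6 (0.0616), with library 5(2) alone (0.0587) and with only the 2 groups compared (0.112). With 5(1) and 5(2) as separate samples the change was -0.97, with the offsets -0.93 and with the offsets and replicate block -0.94, each short of the fold needed. The pump Abcb1b, named after its values were seen, was at -1.10 by edgeR (adjusted p = 0.132) and was called with the offsets alone (-1.10, adjusted p = 0.0399).

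In neither fucoidan group was any of the 34 called by edgeR against senescent MEFs. Its unadjusted p was under 0.05 for 10 genes at the lower dose and 3 genes at the higher, and the share of all genes at that level was not counted. At 100 μg/mL 11 of the 34 lay above and 23 below, the median being -0.18 beside -0.02 over all genes. At 300 μg/mL 15 lay above and 19 below, the median being -0.04 beside 0. Blm differed by 0.59 (adjusted p = 0.397) at 100 μg/mL and 0.63 (adjusted p = 0.446) at 300 μg/mL. DESeq2 called Ercc1, a subunit of an excision nuclease, lower in both groups, with log2 differences of -1.004 (adjusted p = 0.0220) and -1.01 (adjusted p = 0.0291), and the pump Abcb1a lower at 100 μg/mL, with one of -3.26 (adjusted p = 0.0394). Both were named after their values were seen, and edgeR gave -1.10 (adjusted p = 0.0633) and -1.03 (adjusted p = 0.114) for Ercc1 and -3.35 (adjusted p = 0.144) for Abcb1a. Ercc1 had 32.2, 39.5 and 64.8 CPM in senescent mice 4, 5 and 6, and 21.7, 20.9 and 21.1 CPM at 100 μg/mL. The paper, by contrast, lists ERCC1 in a cluster of genes upregulated by fucoidan in senescent MEFs at 100 μg/mL. Why the directions differ was not tested.

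The remaining 4 matched genes were too low to test. Spo11, the topoisomerase-like enzyme of meiosis, had 0 counts in all 12 samples, and its partner Top6bl had 0 to 7. Ddi1 had 0 to 4 counts. Rmi2, a subunit of the complex of TOP3A and BLM, had 11, 18 and 2 counts in the control mice, 0, 0 and 1 in the senescent mice and at most 2 in any fucoidan sample.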

How the data were processed

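Total RNA of the 13 libraries was made into stranded libraries and sequenced by the study. Per the labels and the submitters' processing notes, quality was checked with FastQC 0.12.1, reads were trimmed with Trimmomatic and aligned with STAR 2.7.11b to GRCm39, and the authors deposited expected counts per gene and TPM from RSEM 1.3.1, the first not normalized and the second scaled by the length that RSEM estimates. The deposited length columns were read only to describe that length. Whether counting used strand is not given in the sources used here. A deposited table that joins all libraries holds the same values and was not used.

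Of 57010 gene IDs, 56310 were matched to GENCODE M39. Expected counts were rounded, 5(1) and 5(2) were summed, and the filter was filterByExpr with a count of 10 and a total of 15 as minima. The quasi-likelihood test of edgeR 4.0.16 (R 4.3.3) was run with TMM normalization in a single fit of all 4 groups, and p was adjusted by Benjamini-Hochberg over 15034 genes, separately for each of 6 comparisons. A gene was called at an adjusted p below 0.05 with a log2 change beyond 1 in size. Ratios of TPM were compared by exact permutation tests. DESeq2 1.42.0 was an alternative. On data simulated for senescent against control, 149 of 200 changed genes among 13190 were recovered, with 9 false calls.

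The labels give the same mouse numbers in every group. Pairing on these labels was used in the replicate block alternative and in counts such as 3 of 3 mice. The correlation of same-numbered deviations had a median of -0.01 over 18 pairs (-0.20 to 0.43), and 8 pairs were over 0.1. The main fit and the permutation tests reported above had no block, and the alternatives are described in the closing section. The members, the lists and the motifs were chosen with earlier results of these data known. Named were all members, list genes past the threshold in the 3 main comparisons or too low to test, the transcripts most alike and Cdkn1a. The p-values of edgeR set each difference against the spread between samples, estimated in the single fit. Those of the permutation tests are the share of rearrangements of samples between 2 groups with a mean difference at least as large. Both rest on 3 samples per group. Counts of the skeletal muscle list were almost all Acta1, at 81.7 to 121.0 CPM in control, 74.1 to 92.7 in senescent, 13.6 to 51.3 at 100 μg/mL and 18.0 to 42.8 at 300 μg/mL.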

Additional observations from a re-analysis of the deposited data

How the results depend on the processing

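Alternatives changed the tool (DESeq2), the normalization (RLE factors), the filter, the samples fitted, the use of libraries 5(1) and 5(2), a replicate block for the mouse, offsets for single-transcript share, length and GC content, or left out 1 mouse. Top2a remained called against control under each of them in all 3 etoposide-treated groups. Paired on the mouse, the replicate block gave -4.73 for Top2a in senescent against control MEFs and called 5 of the list genes in place of 6. It ended the call of Eme1 and took Top3b at 100 μg/mL against control past the adjusted p of 0.05, and changed no other call of a member or of the 6 list genes called. The ratio of Top2a to Top2b stayed lower in senescent than in control MEFs under every alternative.

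Some counts moved. List genes called in senescent against control MEFs, 6 in the report, were 4 with library 5(2) alone, with the offsets and replicate block, with only the 2 groups compared and without control mouse 4 or 5, and 7 by DESeq2 and with no filter beyond 1 count. Members called at 100 μg/mL against control were 2 with library 5(1) alone, and 1 to 2 over the fits without 1 mouse, where Top3a was added at -1.04 and, without mouse 6 of that group, -1.09. At 300 μg/mL against control they were 1 to 2, with Top3a added at -1.02 without mouse 4 of that group. List genes called against senescent MEFs were 2 at 100 μg/mL by DESeq2 and with no filter beyond 1 count, and 1 at 300 μg/mL by each of these and with the offsets.

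Small differences that had not passed the test changed sign, and the cause was not tested. With the offsets, and with the offsets and a replicate block, these log2 differences were -0.229 and -0.2 for Top2b at 100 μg/mL against senescent, -0.208 and -0.18 for Top2b at 300 μg/mL, -0.321 and -0.355 for Top1 at 300 μg/mL, -0.089 and -0.087 for Top3a at 300 μg/mL, 0.118 and 0.132 for Top1mt at 100 μg/mL, 0.259 and 0.245 for Top1mt at 300 μg/mL, and -0.01 and -0.017 for Top1mt in senescent against control. With the offsets alone Top2a at 100 μg/mL was -0.065. Library 5(1) alone gave 0.018 for Top2b in senescent against control, library 5(2) alone gave 0.024 for Tdp2 and -0.045 for Top1mt, and both as separate samples 0.004 for Tdp2. For Top1mt at 100 μg/mL DESeq2 and no filter each gave 0.054, RLE factors 0.056, the stricter filter 0.059 and the fit of only those groups 0.065. For Tdp1 at 300 μg/mL DESeq2 and RLE factors each gave 0.013, no filter 0.02 and the stricter filter 0.009. The ratio of Top2a to Top2b by expected counts was 0.006 at 100 μg/mL.

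Without 1 mouse, the differences from senescent MEFs ran from -0.408 to 0.032 for Tdp1, -0.147 to 0.382 for Top1mt and -0.293 to 0.157 for Top3a at 100 μg/mL. At 300 μg/mL they ran from -0.25 to 0.157 for Tdp1, -0.288 to 0.482 for Top1, -0.255 to 0.272 for Top1mt and -0.223 to 0.222 for Top3a. In senescent against control they ran from -0.133 to 0.103 for Tdp2 and -0.151 to 0.378 for Top1mt, and the log2 ratio of Top2a to Top2b at 100 μg/mL ran from -0.673 to 0.778. With 3 mice per group, counts of 20 to 81 for Top2a at 300 μg/mL and a difference of 2.04 in Top1 between the libraries of control mouse 5, small changes could be missed.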
